A study of Mus musculus with 10 samples.

Results

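The anaphase-promoting complex/cyclosome (APC/C) was followed at the RNA level through 10 of its genes, comprising its co-activators Cdc20 and Fzr1, its ubiquitin-conjugating enzymes Ube2c and Ube2s, its inhibitor Fbxo5, the substrate Pttg1 with the protease it restrains, Espl1, and the subunits Cdc27, Cdc23 and Anapc1. The genes were chosen by symbol and all 10 were found among the 48795 genes listed; each passed the filter on low counts, which left 12859 genes to test. Between proliferating neurospheres of wild-type (WT) neural stem cells and attached cells 24 h after mitogen withdrawal, the RNA of 8 of the 10 genes fell. Of all genes tested, 67.4% changed and 33.9% fell. The RNA of Cdc20, Ube2c, Fbxo5 and Espl1 fell by 11.3- to 12.8-fold. In the differentiating cells labelled p27KO, the same 4 genes were 2.67- to 3.15-fold higher than in WT, where 2.04% of all genes tested differed. None of these 4 calls was kept in a fit of the differentiating libraries alone. In proliferating cells, no difference between the genotypes was called for any of the 10 genes, where 0.0156% of all genes tested were called. A test of whether the change between conditions differed by genotype called 1 of the 10 genes, Fbxo5, where 0.389% of all genes tested were called. That call was lost when most single libraries were left out. Genotype and sex cannot be told apart in these libraries.

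The study asked how the cell cycle inhibitor p27 acts on gene expression when adult neural stem cells stop dividing. RNA was sequenced from cultured NSC/NPCs, the stem and progenitor cells taken from the subependymal zone of 10-week-old mice of a C57BL/6J background, either WT or carrying a mutation of Cdkn1b, the gene of p27 (p27KO). In the proliferating condition (PRO), cells grew for 3 days in vitro (DIV) as neurospheres with epidermal growth factor at 20 ng/ml and fibroblast growth factor (FGF) at 10 ng/ml. In the differentiating condition (DIFF, 2 + 1 DIV), they spent 2 days attached to Matrigel with FGF and a further 24 h without mitogens in 2% foetal bovine serum. The conditions thus differed in attachment and serum as well as in mitogens, and these cannot be told apart here. The labels and the methods give 3 DIV for the neurospheres, while the study's results text gives a longer time. There were 3 WT libraries of each condition and 2 p27KO libraries of each. The labels do not tie the libraries to separate animals or cultures, so that the p-values measure the spread between these libraries. The deposited values are the authors' RSEM-estimated counts per gene, and the totals were 19190068 to 25291674 counts per library. They are given here as CPM, the count scaled to the library total. Whether the libraries of 2 groups overlap is given as a description, since the share of all genes tested whose groups lay apart was not counted. In bulk RNA, fewer cells that express a gene and less RNA per cell cannot be told apart.

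The labels of the mutant libraries call for caution. The free text of these samples names WT cells, while their titles and genotype fields say p27KO. Cdkn1b itself was at 103 to 112 CPM in WT PRO, 205 to 209 in WT DIFF, 90.7 to 114 in p27KO PRO and 137 to 140 in p27KO DIFF. The difference in DIFF, -0.56 ± 0.09 on the log2 scale (SE), was called by edgeR's quasi-likelihood test (Benjamini-Hochberg adjusted p = 0.012), but not without p27KO DIFF replicate 1 (adjusted p = 0.114) or 2 (0.152). The counts do not show a loss of the transcript, and nothing in the sources used here says which part of it the mutation leaves. The libraries labelled p27KO also held 2258 to 3595 CPM of Xist against 1.16 to 2.57 in WT, and their 4 summed Y-linked genes stood at 0.148 to 0.585 CPM against 189 to 533, so that genotype and sex cannot be told apart. Stem cell markers (Nes, Vim, Fabp7, Egfr, Msi1 and Hes5) summed to between 4910 and 7114 CPM in all libraries. The 5 microglial markers (Cx3cr1, Csf1r, Aif1, Ptprc and C1qa) summed to at most 0.456 CPM in any library. The 4 endothelial markers (Pecam1, Cldn5, Cdh5 and Kdr) summed to 1.65 to 2.49 CPM in PRO and 4.27 to 10.6 CPM in DIFF. Of these, Cldn5 and Cdh5 were at 0 in all 10 libraries.

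The APC/C is a ubiquitin ligase that sets the order of events in mitosis and keeps cells in G1. CDC20 activates it at the metaphase-to-anaphase transition, once the spindle checkpoint is satisfied, and the FZR1 protein (CDH1) takes over at mitotic exit and holds the complex active in G1 and in cells that have left the cycle. UBE2C starts ubiquitin chains on substrates and UBE2S extends them. FBXO5 (EMI1) inhibits the complex during S and G2 phases. Securin, encoded by Pttg1, holds back separase, encoded by Espl1, until the APC/C has it degraded and sister chromatids can part. In the nervous system the form with FZR1 is known to act in neurons that no longer divide. Much of this regulation acts on proteins, which RNA counts do not measure.

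Many genes of the G2 and M phases share a pair of short promoter elements, the cell cycle genes homology region (CHR, TTTGAA or TTCGAA) and the CCAAT box. Both were searched for on either strand from 250 bases before to 50 bases after each gene's start in the RefSeq sequences of GRCm38.p6. Promoters were found for 9 of the 10 genes (not Cdc23), and 5 of the 9 held a CHR-like motif, 6 a CCAAT and 4 both. Of 32851 promoters of the same length, 19.2% held a CHR-like motif, 37.4% a CCAAT and 7.52% both. The 90-base windows below are printed 5′ to 3′ on the strand of the gene, with the motifs of either strand in capitals. The windows are those of 3 of the 4 genes called between the genotypes in DIFF and of a subunit gene not called. They lie at chr4:118437344-118437433 (minus strand, Cdc20), chr2:164769838-164769927 (plus strand, Ube2c), chr15:102296203-102296292 (plus strand, Espl1) and chr11:104550621-104550710 (minus strand, Cdc27).
Cdc20: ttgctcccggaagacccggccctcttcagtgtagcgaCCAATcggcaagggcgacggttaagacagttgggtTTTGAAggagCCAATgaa
Ube2c: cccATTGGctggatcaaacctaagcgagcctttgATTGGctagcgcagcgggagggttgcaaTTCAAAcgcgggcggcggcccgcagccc
Espl1: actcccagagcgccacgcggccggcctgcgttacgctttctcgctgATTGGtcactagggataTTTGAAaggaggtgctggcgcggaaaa
Cdc27: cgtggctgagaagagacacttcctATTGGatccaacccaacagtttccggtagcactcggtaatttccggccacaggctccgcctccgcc

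Distances are counted from the RefSeq start, and the GENCODE gene starts, which bound the gene coordinates given here, lie 9 bases further upstream for Cdc20, 31 for Ube2c and 27 for Espl1. By the GENCODE starts, the TTTGAA of Ube2c and of Espl1 and the nearer CCAAT of Cdc20 therefore fall within the gene. In Cdc20, the TTTGAA lay 18 bases upstream of the start, with CCAAT boxes 53 and 8 bases upstream. Ube2c held its TTTGAA on the opposite strand, 29 bases upstream, and Espl1 held it 27 bases upstream with a CCAAT 44 bases upstream. The promoter of Fbxo5, the fourth gene with both motifs, held a TTTGAA on the opposite strand 4 bases after the start and 3 CCAAT boxes 25 to 93 bases upstream. Ube2s held a TTCGAA 162 bases upstream and no CCAAT. Cdc27 held 2 CCAAT boxes and Fzr1 held 1, both without a CHR-like motif, and Pttg1 and Anapc1 held neither. The 4 genes with both motifs were the 4 called higher in p27KO DIFF, which is given as a description. A match of letters is not a site of binding, and no factor's binding was measured here.

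Per kilobase of exon, the RNA of the co-activator Cdc20 headed the 10 genes in proliferating WT cells and stood below 6 of them in differentiating ones. The length used was the union of all annotated exons, from 1868 bases for Cdc20 to 16714 for Anapc1. It is not that of the transcripts expressed, so the order between genes depends on the annotation. Before this scaling, the WT PRO means were 107 CPM for Cdc20, 107 for Ube2c and 154 for Ube2s. In WT PRO, the mean level was 57.4 CPM per kb for Cdc20, 41.1 for Ube2c and 29.9 for Ube2s, and the libraries of these neighbours did not overlap. Cdc27 at 25.5 and Anapc1 at 23.8 CPM per kb followed and overlapped each other, then came Fbxo5 at 15.3, Cdc23 at 11.7 and Fzr1 at 11.5 (the last 2 overlapping), Pttg1 at 9.1 and Espl1 at 6.8. In WT DIFF, the subunits Cdc27 (24.1 CPM per kb) and Anapc1 (18.1) headed the order, ahead of Pttg1 (10.2). Cdc23, Ube2s, Fzr1, Cdc20 and Ube2c followed between 8.04 and 3.26 CPM per kb, each overlapping the next, above Fbxo5 at 1.33 and Espl1 at 0.565. In p27KO DIFF, Cdc20 stood at 15.9 CPM per kb, next after Cdc27 at 28 and Anapc1 at 19.4 and before Pttg1 at 10, and overlapped none of them. In p27KO PRO, the order of the 10 genes was that of WT PRO.

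**Figure D1:**
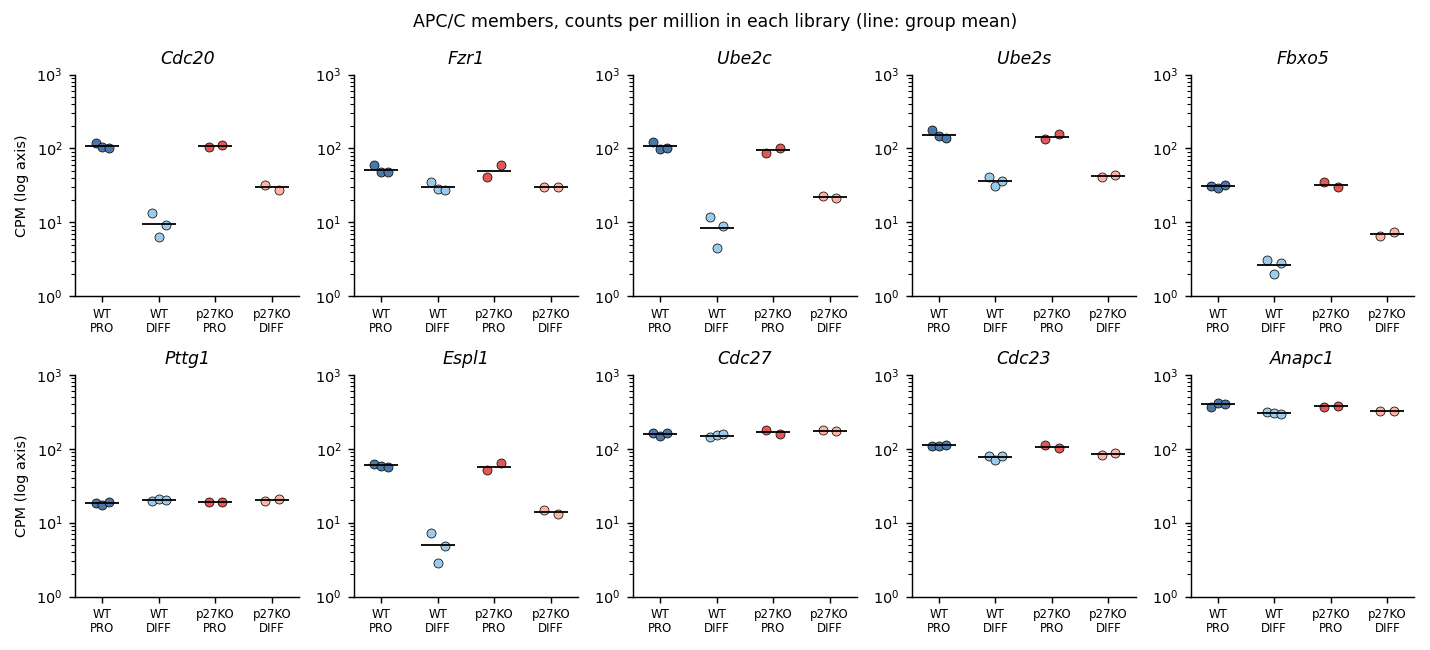
CPM (log axis) of the 10 genes in each library of the 4 groups, with points for libraries and a line for the group mean. Cdc20, Ube2c, Fbxo5 and Espl1 sit lowest in WT DIFF and between WT DIFF and PRO in p27KO DIFF, while Pttg1 and Cdc27 lie at similar levels in all groups.

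The first comparison set WT DIFF against WT PRO. By edgeR's quasi-likelihood test, 8 of the 10 genes fell after Benjamini-Hochberg adjustment over all genes tested. The background was high, since 67.4% of all genes tested were called in this comparison, 33.9% of all being lower and 33.5% higher. The median log2 fold change of the 10 genes was -1.44 against -0.00 over all genes tested. The co-activators parted in size. Cdc20 measured 118, 103 and 101 CPM in WT PRO and 13.3, 6.3 and 9.29 CPM in WT DIFF. The groups were far apart, and replicate 2 was the lowest in DIFF. The fold change was -3.50 ± 0.22 on the log2 scale (SE, adjusted p = 9.7e-07), which is 11.3-fold. Fzr1, the co-activator of G1 and of cells at rest, measured 59.8, 47.4 and 48.3 CPM in WT PRO and 34.6, 28.3 and 27.3 CPM in WT DIFF. These groups did not overlap either. Fzr1 fell by 0.80 ± 0.16 on the log2 scale (adjusted p = 0.00142), a 1.74-fold change.

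Both ubiquitin-conjugating enzymes fell in WT. Ube2c, which starts the chains, measured 121, 98.2 and 102 CPM in PRO and 11.9, 4.56 and 8.98 CPM in DIFF. Its log2 fold change by edgeR was -3.68 ± 0.28 (adjusted p = 3.5e-06), 12.8-fold, with no overlap and again with DIFF replicate 2 lowest. Ube2s, which extends them, measured 175, 146 and 140 CPM in PRO and 41.5, 31.5 and 36.3 CPM in DIFF. Its fold change was -2.09 ± 0.13 (adjusted p = 6.1e-07), 4.26-fold, with no overlap. Exons of Ube2c share 592 of 2600 bases (22.8%) with Tnnc2 on the opposite strand, and those of Ube2s share 183 of 5141 bases with Rpl28. Whether reads were counted by strand is not given in the sources used here. Tnnc2 measured at most 0.207 CPM in any library, while Rpl28, a ribosomal protein gene, measured 116 to 145 CPM in WT PRO and 63.7 to 66.4 CPM in WT DIFF, and its part in the counts of Ube2s was not tested.

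The inhibitor Fbxo5 measured 31.5, 28.9 and 31.8 CPM in WT PRO and 3.1, 2.03 and 2.85 CPM in WT DIFF. It fell by 3.54 ± 0.15 on the log2 scale by edgeR (adjusted p = 9.1e-08), an 11.7-fold change with no overlap between the groups. Securin and separase did not move together. Pttg1 measured 18.5, 17.3 and 18.8 CPM in PRO and 19.9, 20.8 and 20.3 CPM in DIFF. Its log2 fold change was 0.15 ± 0.09 (adjusted p = 0.142; 95% interval -0.02 to 0.32), although the 3 DIFF libraries were above the 3 PRO libraries. Espl1, its partner, measured 62.8, 58.3 and 57.3 CPM in PRO and 7.23, 2.82 and 4.78 CPM in DIFF, and replicate 2 was lowest. It fell by 3.62 ± 0.27 on the log2 scale (adjusted p = 3.0e-06), or 12.3-fold.

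The subunits Cdc27, Cdc23 and Anapc1 changed by less than 1.5-fold in WT. Cdc27, a subunit that receives the co-activators, measured 163, 151 and 164 CPM in PRO and 144, 152 and 156 CPM in DIFF, with overlapping groups. Its log2 fold change was -0.09 ± 0.07 by edgeR (adjusted p = 0.29; 95% interval -0.24 to 0.05). Cdc23 measured 110, 109 and 114 CPM in PRO and 78.7, 70.4 and 80 CPM in DIFF, and fell by 0.55 ± 0.07 (adjusted p = 7.7e-05). Anapc1, the scaffold subunit, measured 367, 418 and 406 CPM in PRO and 310, 300 and 298 CPM in DIFF, and fell by 0.40 ± 0.07 (adjusted p = 7.2e-04). Neither pair of groups overlapped. Exons of Cdc23 share 1271 of 9500 bases (13.4%) with Kif20a on the opposite strand, a mitotic kinesin gene that measured 120 to 123 CPM in WT PRO and 7.63 to 16.8 CPM in WT DIFF, and its part in the fall of Cdc23 was not tested. The 8 calls in WT were kept under each alternative run, including each library left out in turn.

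**Figure D2:**
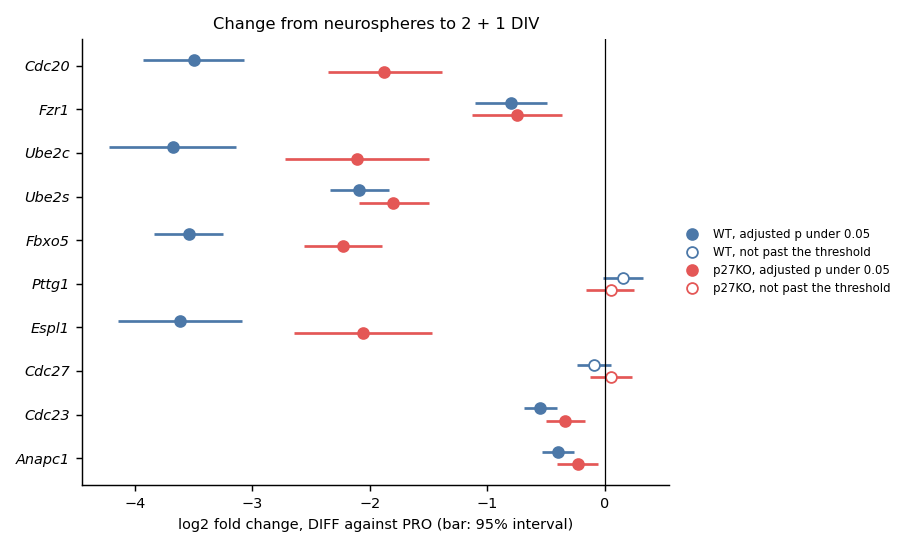
Fitted log2 fold change from PRO to DIFF of each of the 10 genes in WT and in p27KO, with 95% intervals and filled points for an adjusted p under 0.05. The points of Cdc20, Ube2c, Fbxo5 and Espl1 lie between -3.68 and -3.50 in WT and between -2.23 and -1.88 in p27KO, while those of the other 6 genes lie near each other in both genotypes.

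Between the same conditions in the libraries labelled p27KO, the same 8 genes fell, where 57.7% of all genes tested were called, 30.2% being lower and 27.5% higher. Cdc20 measured 103 and 112 CPM in PRO and 31.7 and 27.7 CPM in DIFF, and fell by 1.88 ± 0.25 on the log2 scale by edgeR's test (adjusted p = 1.8e-04), or 3.67-fold. Ube2c went from 87 and 102 CPM to 22.9 and 21.6 CPM, a fold change of -2.11 ± 0.31 (adjusted p = 3.9e-04). Fbxo5 went from 34.8 and 30 CPM to 6.62 and 7.42 CPM, with -2.23 ± 0.17 (adjusted p = 6.6e-06). None of these groups overlapped. Espl1 went from 50.8 and 63.7 CPM to 14.9 and 13 CPM, with -2.06 ± 0.30 (adjusted p = 3.6e-04). Ube2s went from 133 and 155 CPM to 40.5 and 44 CPM, with -1.80 ± 0.15 (adjusted p = 1.2e-05). The PRO libraries were above the DIFF libraries for both genes.

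The remaining falls in p27KO were small. Fzr1 measured 40.8 and 58.8 CPM in PRO, a wide spread, and 29.8 and 30.5 CPM in DIFF. Its fold change was -0.75 ± 0.19 (adjusted p = 0.00808 by edgeR) and was lost without p27KO PRO replicate 2 (-0.44, adjusted p = 0.0719). Cdc23 measured 112 and 101 CPM in PRO and 82.9 and 88.7 CPM in DIFF. It fell by 0.34 ± 0.09 (adjusted p = 0.00748), a call lost without p27KO DIFF replicate 1 (adjusted p = 0.0621). Anapc1 measured 369 and 379 CPM in PRO and 321 and 328 CPM in DIFF, groups that did not overlap. Its fall of 0.23 ± 0.09 (adjusted p = 0.0447) was lost when any library other than WT PRO replicate 1 was left out (adjusted p = 0.0504 to 0.155), and with a replicate block within genotype (adjusted p = 0.0597). Pttg1 measured 18.9 and 19.3 CPM in PRO and 19.5 and 20.6 CPM in DIFF, a log2 fold change of 0.05 ± 0.11 (adjusted p = 0.728). Cdc27 measured 177 and 156 CPM in PRO and 177 and 173 CPM in DIFF (0.05 ± 0.09, adjusted p = 0.65). Neither gene was called, with 95% intervals of -0.16 to 0.25 and -0.13 to 0.23.

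The difference between the changes of both genotypes, tested as an interaction in edgeR, was called for 1 of the 10 genes, Fbxo5, where 0.389% of all genes tested were called. The change of Fbxo5 was smaller in p27KO by 1.31 ± 0.22 on the log2 scale (adjusted p = 0.0399). The call held without WT DIFF replicate 1 or 2 but was lost without any one of the other 8 libraries (adjusted p = 0.0702 to 0.221). It was also lost with the replicate block within genotype (adjusted p = 0.065), where none of the 10 genes was called. For Cdc20 the difference was 1.62 ± 0.32 (adjusted p = 0.0875), for Ube2c 1.57 ± 0.40 (0.279) and for Espl1 1.55 ± 0.39 (0.265). These 3 missed the threshold, but with DESeq2 all 3 were called beside Fbxo5 (adjusted p = 8.0e-05, 0.00661 and 0.00557). Cdc20 was also called without WT DIFF replicate 1 (1.91, adjusted p = 0.0163) or 2 (1.40, adjusted p = 0.035), and Espl1 without WT DIFF replicate 1 (1.91, adjusted p = 0.0245). Unadjusted p-values in edgeR were under 0.05 for the same 4 genes, where they were for 554 of the 12859 genes tested. For Fzr1 the difference was 0.05 ± 0.25 (95% interval -0.44 to 0.54), and for Ube2s it was 0.30 ± 0.19 (-0.08 to 0.67). Those of Pttg1, Cdc27, Cdc23 and Anapc1 were -0.11, 0.14, 0.21 and 0.17, with an adjusted p of 1 each.

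In DIFF, the libraries labelled p27KO held more RNA of 4 of the 10 genes than WT, where 2.04% of all genes tested were called, 1.91% being higher and 0.124% lower. Cdc20, the mitotic co-activator, was at 31.7 and 27.7 CPM in p27KO and 6.3 to 13.3 CPM in WT. The difference was 1.65 ± 0.23 on the log2 scale by edgeR (adjusted p = 0.00542), or 3.15-fold. It was lost without p27KO DIFF replicate 1 (adjusted p = 0.0609) and in a fit of the DIFF libraries alone (0.1). Fbxo5 was at 6.62 and 7.42 CPM in p27KO and 2.03 to 3.1 CPM in WT, a difference of 1.42 ± 0.16 (adjusted p = 0.00166), or 2.67-fold. It was kept without each library in turn, and lost in the fit of the DIFF libraries alone (adjusted p = 0.0779). For neither gene did a p27KO library reach down to a WT one.

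Espl1 was at 14.9 and 13 CPM in p27KO DIFF and 2.82 to 7.23 CPM in WT DIFF, a difference of 1.53 ± 0.28 on the log2 scale by edgeR (adjusted p = 0.025), or 2.89-fold. It was lost without WT PRO replicate 2 (adjusted p = 0.0522) or 3 (0.0516), WT DIFF replicate 3 (0.07), or p27KO DIFF replicate 1 (0.189) or 2 (0.1). With the replicate block shared by the genotypes the adjusted p was 0.0537, and without the filter 0.0868. Ube2c was at 22.9 and 21.6 CPM in p27KO DIFF and 4.56 to 11.9 CPM in WT DIFF. Its difference was 1.42 ± 0.29 (adjusted p = 0.0423), or 2.68-fold, and it was lost without any library other than WT DIFF replicates 1 and 2 (adjusted p = 0.0673 to 0.244), with the shared block (0.0667), without TMM (0.0541) and without the filter (0.181). The groups of both genes lay apart, for which no share over all genes was counted. In the fit of the DIFF libraries alone, none of the 10 genes was called. DESeq2 called the same 4.

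The other 6 genes were not called between the genotypes in DIFF. Ube2s was at 40.5 and 44 CPM in p27KO and 31.5 to 41.5 CPM in WT, overlapping, with a difference of 0.23 ± 0.14 on the log2 scale (edgeR adjusted p = 0.48; 95% interval -0.04 to 0.50). This was smaller in size than for Ube2c, the other conjugating enzyme, and the genes were not tested against each other. Fzr1 differed by 0.02 ± 0.18 (adjusted p = 0.971; -0.33 to 0.37) and Pttg1 by -0.01 ± 0.10 (adjusted p = 0.974; -0.20 to 0.18). Cdc27 was at 177 and 173 CPM in p27KO and 144 to 156 CPM in WT, which did not overlap, with a difference of 0.23 ± 0.08 (adjusted p = 0.225; 0.07 to 0.39). Cdc23 differed by 0.18 ± 0.08 (adjusted p = 0.318; 0.03 to 0.33) and Anapc1 by 0.11 ± 0.08 (adjusted p = 0.554; -0.04 to 0.27). Unadjusted p-values in edgeR were under 0.05 for 6 of the 10 genes in DIFF, including Cdc27 (0.0189) and Cdc23 (0.0426). They were for 1901 of the 12859 genes tested. Kif20a, which shares exon bases with Cdc23, was at 32.8 to 41.8 CPM in p27KO DIFF and 7.63 to 16.8 CPM in WT DIFF, and its part was not tested. In PRO none of the 10 genes was called with edgeR or DESeq2, where 0.0156% of all genes tested were called by edgeR. None of the 10 had an unadjusted p under 0.05 in edgeR, where 603 of the 12859 genes tested did. The differences in PRO ran from -0.15 for Ube2c to 0.10 for Fbxo5.

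**Figure D3:**
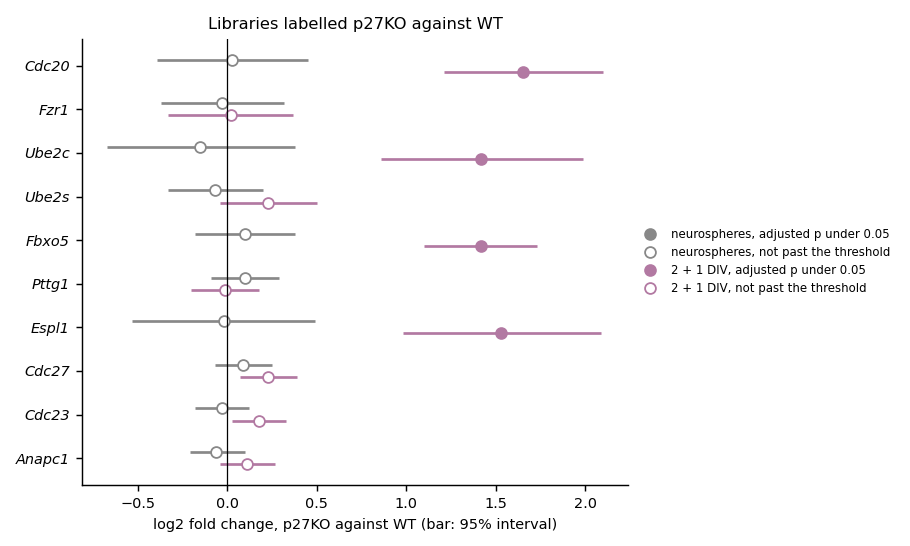
Fitted log2 difference between p27KO and WT for each of the 10 genes in PRO and in DIFF, with 95% intervals and filled points for an adjusted p under 0.05. In DIFF, Cdc20, Espl1, Fbxo5 and Ube2c lie between 1.42 and 1.65, and in PRO the 10 genes lie between -0.15 and 0.10.

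Ratios of counts within a library do not depend on its scaling, and 3 were formed as descriptions. The ratio of Fzr1 to Cdc20, the co-activators of late mitosis and of anaphase onset, was 0.459 to 0.508 in WT PRO and 0.397 to 0.526 in p27KO PRO. It was 2.61 to 4.49 in WT DIFF but 0.94 and 1.1 in p27KO DIFF. Fzr1 counts thus exceeded Cdc20 counts in all WT DIFF libraries and in 1 of 2 in p27KO DIFF. Counts are not corrected for length (annotated exons of 4488 bases for Fzr1 and 1868 for Cdc20), so a ratio of 1 does not mark equal RNA. Per kilobase of exon, p27KO DIFF held 6.72 CPM of Fzr1 and 15.9 of Cdc20. In WT DIFF the values were 6.7 and 5.15, with overlapping libraries. The mean log2 ratio rose by 2.76 from PRO to DIFF in WT and by 1.15 in p27KO. The ratio of Ube2c to the subunit Cdc27 was 0.621 to 0.738 in WT PRO, 0.03 to 0.0825 in WT DIFF, 0.492 to 0.657 in p27KO PRO and 0.125 to 0.129 in p27KO DIFF. The ratio of Pttg1 to Espl1, chosen after the values were seen, was 0.295 to 0.327 in WT PRO and 2.76 to 7.38 in WT DIFF, and 0.302 to 0.372 and 1.31 to 1.58 in p27KO. For all 3 ratios the libraries of WT DIFF and p27KO DIFF lay apart, and those of WT PRO and p27KO PRO overlapped. An exact permutation test could not have gone below a p of 0.1 with 3 against 3 libraries or 0.2 with 3 against 2, so none was made.

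**Figure D4:**
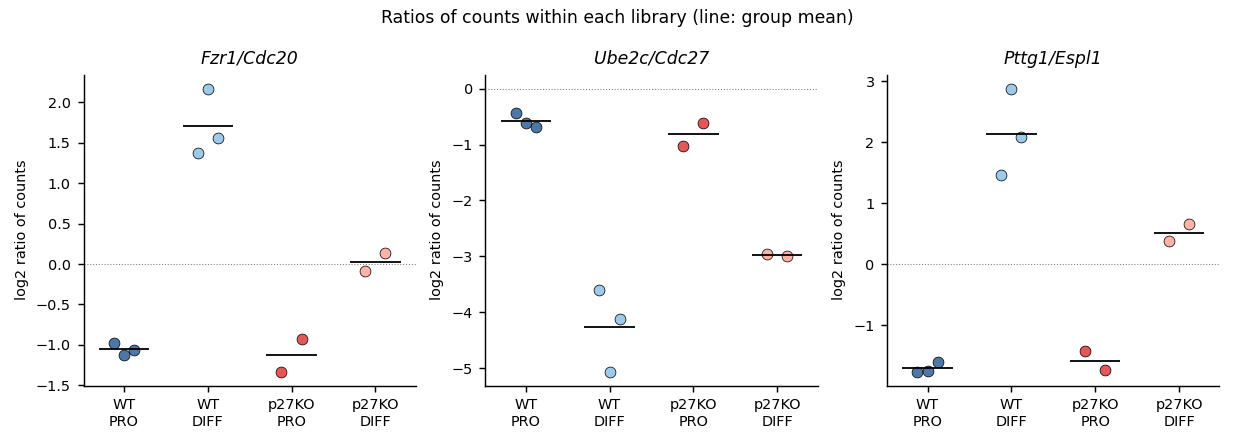
Log2 ratio of counts within each library for Fzr1 to Cdc20, Ube2c to Cdc27 and Pttg1 to Espl1, with a point per library and a line for the group mean. In p27KO DIFF, Fzr1/Cdc20 lies near 0, below the 1.38 to 2.17 of WT DIFF. The counts are not corrected for gene length, so 0 does not mark equal RNA.

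The APC/C genes outside the 10 were described by lists of core subunits, regulators and substrates. The core list held 14 subunits, all tested, and includes Cdc27, Cdc23 and Anapc1. In WT, where 67.4% of all genes tested were called, 6 of the 14 fell and 1 rose (Anapc16, 0.27 ± 0.08 on the log2 scale, adjusted p = 0.0146 by edgeR), with a median of -0.15 against -0.00 over all genes tested. Anapc15, a subunit involved in turnover of the checkpoint complex, fell by 1.30 ± 0.09 (adjusted p = 1.1e-06), from 32.9 ± 1.43 to 13.5 ± 0.851 CPM (SD, n = 3 each). Cdc16, a structural subunit, fell by 0.84, Anapc5 by 0.82, and Anapc11, the catalytic RING subunit, by 0.42. In p27KO, against 57.7% of all genes, 6 fell and 1 rose as well, with a median of -0.12 and falls of 1.04 for Anapc15, 0.85 for Cdc16, 0.65 for Anapc5 and 0.45 for Anapc11. In the interaction and between the genotypes in DIFF, 0 of the 14 were called by edgeR or DESeq2. Unadjusted p-values in edgeR were under 0.05 for 0 and 2 of the 14, where 554 and 1901 of the 12859 genes tested were. The medians of the 14 were 0.05 and 0.00.

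The list of regulators held 19 genes, of which 16 were tested and Fbxo43, Cdc20b and Usp44 did not pass the filter. In WT, 10 of the 16 fell and 3 rose, against 67.4% of all genes called, with a median of -0.42. Checkpoint genes were among those that fell, namely Mad2l1 (MAD2), by 2.93 ± 0.11 on the log2 scale, Bub1b (BUBR1), by 2.90 ± 0.18, and Trip13, an ATPase that remodels MAD2, by 3.25 ± 0.17. Plk1, a mitotic kinase that primes FBXO5 for degradation, fell by 3.54 ± 0.24. The genes that rose were Mad2l2, an inhibitor of the form with FZR1, from 16 ± 1.08 to 45.4 ± 6.7 CPM (SD, n = 3 each; 1.49 ± 0.13 on the log2 scale, adjusted p = 7.6e-06 by edgeR), Evi5, which is known to stabilise FBXO5 (1.16 ± 0.09), and Btrc, part of the ligase that degrades FBXO5 (0.38 ± 0.10). In p27KO, 10 fell and 2 rose, against 57.7% of all genes called, with a median of -0.43. The rises were 1.05 ± 0.16 for Mad2l2 and 1.10 ± 0.10 for Evi5.

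Between the genotypes in DIFF, 4 of the 16 regulators were higher in p27KO by edgeR, where 1.91% of all genes tested were higher, and the median of the 16 was 0.08. The 4 were Plk1 (1.52 ± 0.25 on the log2 scale, adjusted p = 0.012), Bub1b (1.33 ± 0.19, adjusted p = 0.00567), Mad2l1 (1.09 ± 0.12, adjusted p = 0.00146) and Trip13 (0.99 ± 0.18, adjusted p = 0.0216). Mad2l1 was kept without each library in turn. Bub1b was lost without p27KO DIFF replicate 1 (0.0658), Plk1 without p27KO DIFF replicate 1 (0.117) or 2 (0.0624), and Trip13 without WT DIFF replicate 1 (0.0748) or 2 (0.0722) or p27KO DIFF replicate 1 (0.202) or 2 (0.0879). All 4 were lost in the fit of the DIFF libraries alone. In the interaction, Mad2l1 was the 1 regulator called by edgeR (adjusted p = 0.0457), where 0.389% of all genes tested were called. It was lost without any library other than WT DIFF replicates 1 and 2, without which 2 and 3 regulators were called. Its call was also lost without TMM (adjusted p = 0.0686) and with the replicate block within genotype (0.0652). Keeping all genes that reached 1 CPM in 4 libraries gave an adjusted p of 0.051.

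The 41 known substrates, all tested, include Plk1, which is also counted among the regulators. The substrates moved by far more than the subunits. In WT, 39 fell and 2 rose, against 67.4% of all genes called, with a median of -3.21, where the median over all genes tested was -0.00. Cdc6, a replication licensing factor that the form with FZR1 targets, fell by 5.78 ± 0.25 on the log2 scale by edgeR (adjusted p = 1.0e-07), from 45.7 ± 5.36 to 0.845 ± 0.362 CPM (SD, n = 3 each). Uhrf1, which maintains DNA methylation, fell by 4.83, and Rrm2, a subunit of ribonucleotide reductase, fell by 4.77. Aurkb, the kinase of the chromosomal passenger complex, fell by 4.08. The 2 that rose were Id2, an inhibitor of differentiation factors (2.79 ± 0.19), and Skil, an inhibitor of TGF-beta signalling (0.76 ± 0.13). In p27KO, 38 fell and the same 2 rose, against 57.7% of all genes called, with a median of -1.66. Cenpf, a kinetochore protein gene, was the one not called (-0.37, adjusted p = 0.175).

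Of the 41 substrates, 31 were higher in p27KO DIFF than in WT DIFF and none was lower by edgeR, where 1.91% of all genes tested were higher, with a median difference of 1.41 against -0.01 over all genes tested. Without p27KO DIFF replicate 1, 16 were called. Cenpf was at 251 ± 16.6 CPM in p27KO DIFF (SD, n = 2) and 57.1 ± 16 CPM in WT DIFF (SD, n = 3), a difference of 2.16 ± 0.20 on the log2 scale by edgeR (adjusted p = 7.5e-04). Nek2, a centrosomal kinase, differed by 2.01 ± 0.30, Cdc6 by 1.98 ± 0.28 and Bub1, a checkpoint kinase, by 1.92 ± 0.19. Nek2 lost its call without p27KO DIFF replicate 1 (adjusted p = 0.0831) and Cdc6 without p27KO DIFF replicate 2 (0.0606). In the interaction 12 of the 41 substrates were called, where 0.389% of all genes tested were, all with a smaller change in p27KO, and the median of the list was 1.33 against -0.01. The count was 26 without WT DIFF replicate 1, 22 without replicate 2 and 9 without replicate 3, and 0 or 1 without any one of the WT PRO, p27KO PRO or p27KO DIFF libraries. In a fit of the DIFF libraries alone 8 of the 41 were higher in p27KO. In PRO none of the 41 was called by edgeR or DESeq2, and their median difference was 0.05. Of the 41, 4 had an unadjusted p under 0.05 in edgeR, where 603 of the 12859 genes tested did. The 3 stage and genotype comparisons share libraries, so that their values are not independent of each other.

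**Figure D5:**
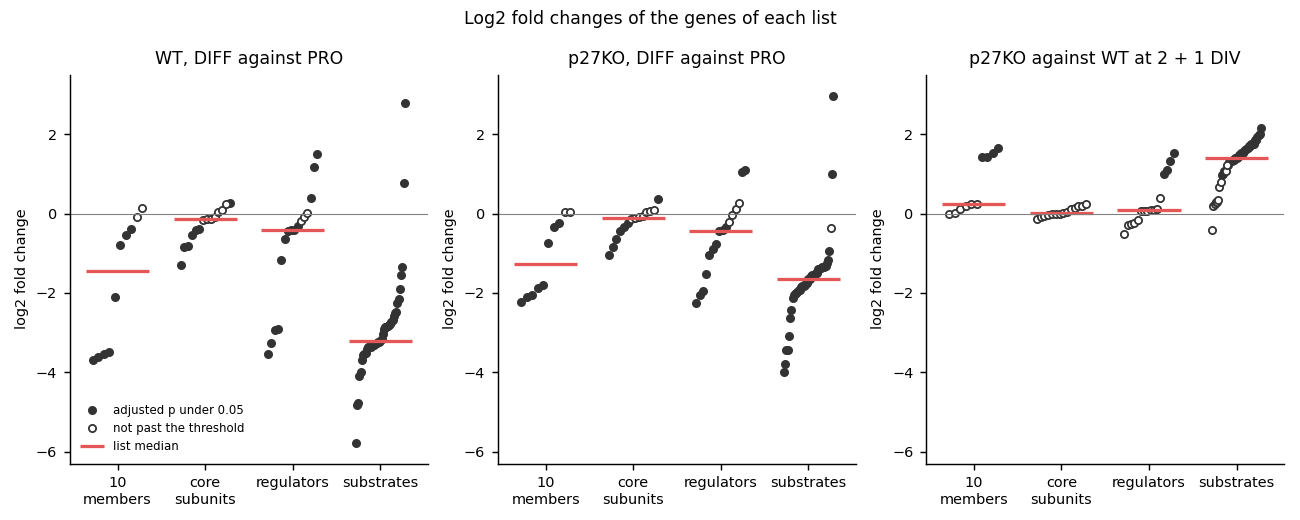
Fitted log2 fold changes of the 10 genes, 14 core subunits, 16 regulators tested and 41 substrates in WT and in p27KO from PRO to DIFF and between genotypes in DIFF, with a point per gene, filled for an adjusted p under 0.05, and a line at the median. The substrates have medians of -3.21, -1.66 and 1.41, and the core subunits of -0.15, -0.12 and 0.00.

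Other cell type markers were given beside these changes. The astrocytic markers Gfap, Aqp4, S100b, Aldoc and Slc1a2 summed to 636 to 748 CPM in WT PRO, 1955 to 2419 in WT DIFF, 688 to 893 in p27KO PRO and 2133 to 2291 in p27KO DIFF. The neuronal markers Dcx, Tubb3, Stmn2, Map2 and Rbfox3 summed to 1464 to 1710 CPM in WT DIFF and 1995 to 2126 CPM in p27KO DIFF, and the stem cell markers to 4910 to 6120 and 6277 to 6315 CPM. The oligodendrocyte markers summed to 101 to 155 CPM in WT DIFF and 83.3 to 92.9 CPM in p27KO DIFF. In PRO the neuronal sums were 1224 to 1475 CPM in WT and 1507 to 1845 CPM in p27KO, and the stem cell sums 6412 to 7114 and 6275 to 6665 CPM. In DIFF, both sums were thus higher in p27KO without overlap, as were Cdc20, Ube2c, Fbxo5 and Espl1. The neuronal sums also lay apart in PRO, where those 4 genes were not called. The part of these cells in the difference was not tested. Markers of pericytes and smooth muscle (Pdgfrb, Rgs5, Kcnj8 and Acta2) moved with the condition, from at most 2.66 CPM in PRO of either genotype to 28.9 to 68.6 CPM in WT DIFF and 37.3 to 98.6 CPM in p27KO DIFF, overlapping between the genotypes.

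The genes whose levels followed those of the co-activators were sought among 9745 genes. The measure was the root mean square of the difference between centred log2 CPM over the 10 libraries. These CPM were scaled with TMM, and 0.5 was added before the log. Nearest to Cdc20 were Cdca8, a subunit of the chromosomal passenger complex (0.0939), the mitotic kinesin Kif18b (0.102), Espl1 (0.103), Plk1 (0.107) and Bub1 (0.13). Nearest to Fzr1 were Atxn2l (0.0508), Snapc4 (0.0835), Dhx37 (0.0944), E2f4 (0.0952) and Dgkz (0.0966). The points share the same 10 libraries and their depths, so the distances are descriptions.

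The genes lie as follows on GRCm38. Cdc20 (ENSMUSG00000006398) is at chr4:118432901-118437352, Fzr1 (ENSMUSG00000020235) at chr10:81366222-81378516 and Ube2c (ENSMUSG00000001403) at chr2:164769898-164778822. Ube2s (ENSMUSG00000060860) is at chr7:4794546-4812590, Fbxo5 (ENSMUSG00000019773) at chr10:5799160-5805600 and Pttg1 (ENSMUSG00000020415) at chr11:43420250-43426251. Espl1 (ENSMUSG00000058290) is at chr15:102296266-102324357, Cdc27 (ENSMUSG00000020687) at chr11:104502745-104550620, Cdc23 (ENSMUSG00000024370) at chr18:34630951-34651735 and Anapc1 (ENSMUSG00000014355) at chr2:128610104-128687391. Ube2c and Espl1 are on the plus strand and the others on the minus strand. Cdc20 shares 53 of 1868 exon bases with Elovl1 and Fzr1 shares 4 with Mfsd12, both on the opposite strand, and Fbxo5, Pttg1, Cdc27 and Anapc1 overlap no other gene.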

How the data were processed

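RNA was measured in 10 libraries of 4 groups. According to the labels and the methods, polyadenylated RNA was amplified with the Ovation system, reads were trimmed with Trimmomatic and cutadapt and aligned with STAR, and the authors deposited RSEM's estimated counts per Ensembl gene as whole numbers without normalization (processing notes name GRCm38 and mm10). Totals averaged 22701546 counts, and the spread between the 2 or 3 libraries of a group limits the precision of most values.

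A gene below 1 CPM in 4 or more libraries was discarded. The remaining 12859 were fitted with edgeR 4.0.16 (limma 3.58.1, R 4.3.3) as 4 groups, with TMM and a robust quasi-likelihood model. Tests were two-sided, adjusted over the 12859 genes by the Benjamini-Hochberg method and called under 0.05. CPM are scaled to library totals without TMM, except in the search for genes that followed the co-activators. Tables and plots used Python 3.11.15, pandas 2.3.3 and matplotlib 3.10.9. The steps were tested on simulated data.

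The 10 genes and the lists were chosen with earlier results of these data known. Besides the 10 genes, the text names, for each list and comparison, up to 4 genes averaging at least 10 CPM, past the threshold with the largest change where there were any. Anapc16, Mad2l2, Evi5, Btrc, Id2, Skil and Kif20a were named after their values were seen. Alternatives were DESeq2 1.42.0, other scaling, other filters, thinned counts, only the groups compared, the replicate number as a block, and each library left out. Same-numbered WT libraries of both conditions correlated in their deviations from the group means at 0.248, 0.301 and 0.395 and others at -0.221 to -0.0874, which meets the rule set for pairing by number, although no source used here says what the numbers mark. The values and p-values given are those of the fit without a block, and the blocked fit stands beside a result where it changed the call. The deviations within a group sum to 0, so positive correlations at the same number force negative ones among the others. The WT values of same-numbered and other pairs are therefore not independent. Same-numbered p27KO libraries correlated at -0.138 and the others at 0.138, which with 2 libraries per group is the same value with its sign turned. Protein sequences were not analysed here.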

Additional observations from a re-analysis of the deposited data

Results flagged for a closer look

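The interaction in edgeR's quasi-likelihood test (Benjamini-Hochberg adjusted) was called for Fbxo5, Mad2l1 and several substrates. The 4 called substrates of at least 10 CPM with the largest difference are given here. For each gene the change from PRO to DIFF was smaller in p27KO, and 0.389% of all genes tested were called. Rrm2 (1.33 ± 0.16, adjusted p = 0.023) and Aurkb (1.65 ± 0.27, adjusted p = 0.0399), named above, were called as well. The difference was 1.31 ± 0.22 on the log2 scale for Fbxo5 (adjusted p = 0.0399), where WT fell by 3.54 and p27KO by 2.23. It was 0.98 ± 0.17 for Mad2l1 (adjusted p = 0.0457), 1.88 ± 0.26 for Bub1 (0.023), 1.79 ± 0.29 for Cenpf (0.0387), 1.76 ± 0.24 for Hmmr (0.023) and 1.72 ± 0.25 for Ccna2 (0.023). Hmmr, a spindle protein gene, was at 9.05 ± 2.33 CPM in WT DIFF (SD, n = 3) and 31.9 ± 3.65 CPM in p27KO DIFF (SD, n = 2), and Ccna2, the gene of cyclin A2, at 20.9 ± 5.66 and 69.2 ± 6.06 CPM. The calls of Bub1, Cenpf, Hmmr and Ccna2 were lost without any one of the WT PRO, p27KO PRO or p27KO DIFF libraries, and those of Mad2l1 and Fbxo5 also without WT DIFF replicate 3. With the replicate block within genotype, the calls of Ccna2 (adjusted p = 0.085), Mad2l1 (0.0652) and Fbxo5 (0.065) were lost.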

How the results depend on the processing

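Leaving out a p27KO library leaves 1 library in that group, which is assumed to vary like the other groups. The 8 calls in WT held throughout. With DESeq2, the interaction was called for 157 genes (50 with edgeR), 4 of the 10 genes, 3 regulators and 31 substrates, and the genotypes differed for 631 genes in DIFF (262) and 40 in PRO (2). In the fit of only the groups compared, the genotypes differed for 39 genes in DIFF and 1 in PRO, with none of the 10 genes, none of the regulators (0 and 0) and 8 substrates called in DIFF. Without a filter, the interaction was called for 79 genes, the genotypes differed for 14 genes in PRO, 2 of the 10 genes were called in DIFF, and the median of the regulators in WT was -0.50. Keeping all genes that reached 1 CPM in 4 libraries gave 9 genes in PRO and 0 regulators in the interaction. Without TMM, 0 of the 10 genes and 0 regulators were called in the interaction and 1 gene in PRO, and with thinned counts 0 of the 10. With the replicate number as a block within genotype, the interaction was called for 29 genes, 0 of the 10 and 0 regulators. With the block shared by the genotypes, it was called for 0 of the 10, and the genotypes differed for 2 of the 10 in DIFF and 1 gene in PRO. With the p27KO numbers crossed, an alternative chosen after seeing the data, the pairing gave 2 of the 10 genes and 66 genes in all in the interaction. Apart from these and Anapc1 in p27KO, the block changed none of the calls given for the 10 genes between PRO and DIFF.

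Leaving out each library in turn gave 0 to 89 genes, 0 to 3 of the 10 genes, 0 to 3 regulators and 0 to 26 substrates in the interaction. It gave 99 to 282 genes, 1 to 4 of the 10 genes, 1 to 4 regulators and 16 to 33 substrates between the genotypes in DIFF, and 1 to 4 genes in PRO. The lowest counts in DIFF came without p27KO DIFF replicate 1. The medians ran from -3.29 to -2.91 for substrates in WT, from -0.21 to -0.10 for core subunits in p27KO, and in the interaction from 0.01 to 0.14 for core subunits and from -0.03 to 0.14 for regulators.

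Values near 0 that were not called changed sign. In p27KO without a filter Pttg1 and Cdc27 were at -0.02 each, and Cdc27 ran from -0.02 (without p27KO PRO replicate 2) to 0.12 with a library left out. The interaction of Fzr1 ran from -0.21 to 0.36 with a library left out. It was -0.07 without WT PRO replicate 1, -0.03 without WT DIFF replicate 3 and -0.21 without p27KO PRO replicate 1. Its genotype difference in DIFF was -0.04 with the shared block, -0.01 without WT DIFF replicate 2 and -0.05 without replicate 3, and up to 0.12 with another left out. That of Pttg1 was 0.01 with DESeq2, with its size factors in edgeR and without a filter, and 0.02 without WT DIFF replicate 2 or p27KO DIFF replicate 1. The causes were not tested.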
